A study of Zea mays with 3 samples.

Results

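Gene expression was compared between 1.0 mm and 2.0 mm anthers of a maize line in which the Mutator (Mu) transposons are inactive. The 8 Mu-inactive channels at these lengths were taken by their line and length, 4 at 1.0 mm and 4 at 2.0 mm, out of 24 channels on 12 arrays. The other 16 channels held Mu-inactive anthers of 1.5 mm and anthers of a Mu-active line at all 3 lengths, hybridized with the other dye to the same arrays. Each array measured 42034 probes of 60 bases for maize transcripts. The plants were field grown and untreated, anthers were frozen at dissection, and 500 ng of total RNA per channel was amplified before labeling. The Mu-inactive line is defined by the labels only as lacking Mutator activity, and the study's methods name W23 bz2 as the inbred line of all anthers not described otherwise. Those methods mention no Mu-active or Mu-inactive line, so whether W23 bz2 applies here is not stated. The labels give each replicate a sample name of its own but do not state whether replicates came from different plants. The spread given here is therefore the spread between 4 arrays.

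In the grass anther, each lobe holds archesporial cells, the precursors of the meiocytes, inside concentric somatic layers. From the outside these are the epidermis, the endothecium, the middle layer and the tapetum, and connective tissue and vasculature join the lobes. Anther length is used in maize as a measure of developmental stage. At 1.0 mm all of these cell types are present and the archesporial cells have completed their mitotic divisions. By 2.0 mm the meiocytes are in meiotic prophase, when homologous chromosomes pair, and the tapetum is a secretory tissue. Mutator is a family of maize DNA transposons whose movement depends on a transposase, and in an inactive line these elements stay in place.

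Each length was hybridized on a slide of its own, and therefore the effects of stage and slide cannot be told apart in any value below. Fold sizes, the value on every array and the overlap of the arrays are given, and no p-value is given for stage. Intensities are fluorescence values after loess within arrays and quantile normalization between arrays, without background subtraction. Each log2 difference is 2.0 mm minus 1.0 mm, with its standard error (SE) over 4 arrays per stage. Array numbers 1 to 4 name the arrays of a stage, the Mu-inactive RNA being read in Cy5 on arrays 1 and 2 and in Cy3 on arrays 3 and 4. This assignment follows the dye order of the channel labels. The deposited log2 ratios, of samples titled Act vs Inact, correlated across probes at 0.991, 0.988 and 0.991 with the ratio under this assignment at 1.0, 1.5 and 2.0 mm. The list of replicates in the labels, read by number, would exchange the lines, so the Mu-active values given beside a result are what such an exchange would give.

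The oligonucleotides behind several of the results are shown first, because each intensity below is the signal of a single 60-base probe. Bases are in lower case, as listed in the study's supplementary tables, and their positions in the transcripts are not given in the sources used here. The first 4 reported transcripts that rose, for an MtN3-like protein, an alpha carbonic anhydrase, a lipid transfer protein and ferredoxin 5.
TC305255 (GRMZM2G168365): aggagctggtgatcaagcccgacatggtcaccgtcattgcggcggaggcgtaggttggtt
TC315586 (GRMZM2G009633): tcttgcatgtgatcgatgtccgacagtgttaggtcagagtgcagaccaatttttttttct
TC307451 (GRMZM2G448739): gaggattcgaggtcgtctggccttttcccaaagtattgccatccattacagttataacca
TC294457 (fdx5, GRMZM2G122327): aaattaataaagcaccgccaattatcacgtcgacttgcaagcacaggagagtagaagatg
A pair of photosystem II probes also rose.
TC310932 (oxygen-evolving enhancer protein 3-1, GRMZM2G058070): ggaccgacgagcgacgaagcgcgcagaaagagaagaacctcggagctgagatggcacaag
TC310859 (photosystem II 11 kD protein, GRMZM2G005984): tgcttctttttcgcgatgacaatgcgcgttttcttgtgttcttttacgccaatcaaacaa
The next 3 reported transcripts that fell, for an unannotated protein, a protein similar to a plastid translocator and a YABBY factor.
TC306708 (GRMZM2G325623): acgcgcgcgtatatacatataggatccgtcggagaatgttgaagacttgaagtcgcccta
TC281450 (GRMZM2G443265): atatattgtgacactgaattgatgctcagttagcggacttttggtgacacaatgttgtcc
TC285028 (YAB3, GRMZM2G106204): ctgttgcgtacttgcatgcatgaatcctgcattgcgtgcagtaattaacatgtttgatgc
The last belongs to ameiotic 1, a gene needed to enter meiosis in maize, and was not called.
AM1 (am1, GRMZM5G883855): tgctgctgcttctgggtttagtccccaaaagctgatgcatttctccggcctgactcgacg

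Detection was scored against 153 negative control spots. A signal exceeding their mean by over 3 SD, in the same array and dye, counted as ON, and a stage needed 3 such arrays of 4. At 1.0 mm 31326 probes were ON and at 2.0 mm 28627, with 27630 ON at both. The 32323 probes that were ON at 1 or both stages were compared. A probe was called higher or lower when its means differed by at least 2-fold and the 4 arrays of one stage all lay above the 4 of the other. By this rule 1086 probes (3.36% of those compared) were higher at 2.0 mm and 809 (2.5%) were lower. The difference reached 4-fold for 232 of the higher and 73 of the lower probes, and 16-fold for 21 and 5. A further 171 probes above and 221 below the 2-fold line had overlapping arrays and were not called. Among the 3696 probes ON only at 1.0 mm, 23 were called lower (0.622%), and among the 997 ON only at 2.0 mm, 44 were called higher (4.41%). The other switches between ON and OFF were under 2-fold or had overlapping arrays.

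**Figure D1:**
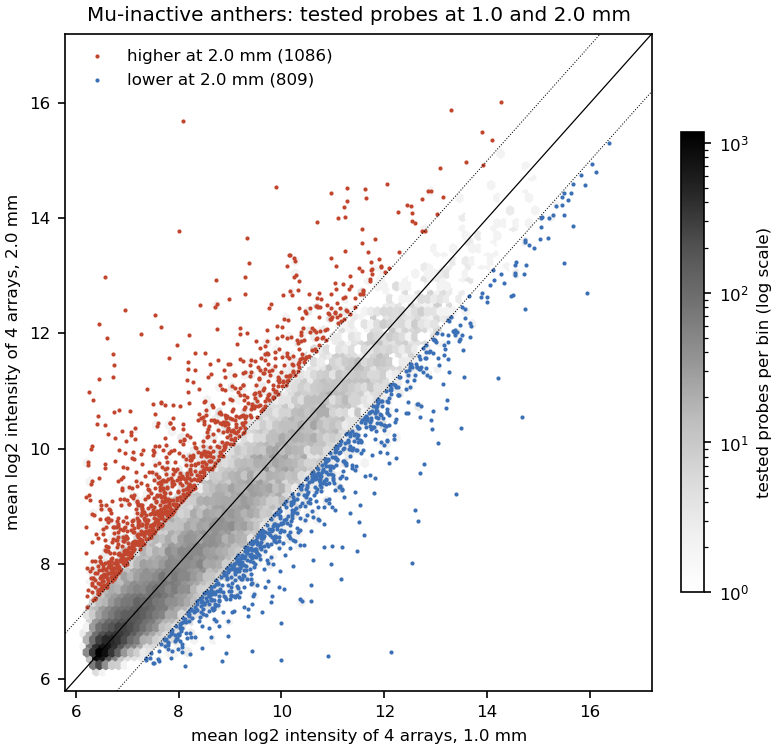
Mean log2 intensity of 4 Mu-inactive arrays at 1.0 mm (horizontal) against 2.0 mm (vertical) for the 32323 compared probes, with gray bins shaded by the number of probes on a log scale. Red points are the 1086 probes called higher at 2.0 mm, blue points the 809 called lower, the solid line marks equal values and the dotted lines a 2-fold difference; the points farthest from the line are above it.

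The balance of calls differed between normalizations. Of the calls, 57.3% were higher at 2.0 mm after quantile normalization. With median centring after loess, 660 probes were higher and 2077 lower, so that 24.1% were higher, and with the scanner software's own signals, which also differ in background subtraction and dye normalization, 2897 were higher and 2956 lower, or 49.5%. The median log2 difference of all compared probes was -0.05, -0.07 and -0.17 under these 3 normalizations. The 8 arrays differed in signal as well. The median raw intensity was 132 to 165 per array at 1.0 mm and 91 to 130 at 2.0 mm, which is 1.65- to 2.27-fold and 1.21- to 1.88-fold the negative control mean. Calls were made in the brighter probes: among the dimmest 25% of compared probes, with means of 78.0 to 101, 0 of 8081 were called in either direction, and among the brightest 25%, 7.23% were higher and 7.31% lower. Log2 intensities correlated across probes at 0.958 to 0.980 within 1.0 mm, 0.947 to 0.977 within 2.0 mm and 0.899 to 0.929 between the stages.

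Control RNAs added to every sample also moved between the slides. The 10 kinds of spike-in, each on 32 spots, were brighter at 2.0 mm after normalization, with a median log2 difference of 1.22 and a range of 0.78 to 1.55. Within each dye both arrays at 2.0 mm were above both at 1.0 mm for all 10 kinds, and over both dyes the arrays of the stages were apart for 3. Within the Cy5 arrays the median was 0.86, within the Cy3 arrays 1.69, and in the Mu-active channels 1.49. Of the 1086 probes called higher, 737 exceeded the spike-in median. The part of the spike-in difference in the anther values was not tested.

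The annotated probes that rose most included an MtN3-like protein, a carbonic anhydrase and a lipid transfer protein. The 12 probes in this class were taken by size of change among called probes paired with 1 annotated gene model. The MtN3-like probe TC305255 (GRMZM2G168365), of the family that includes the SWEET sugar transporters, gave intensities of 222, 132, 162 and 255 at 1.0 mm and 4305, 3683, 6462 and 6593 at 2.0 mm, a log2 difference of 4.77 ± 0.30 (SE), or 27.3-fold. All 4 arrays at 1.0 mm were below all 4 at 2.0 mm by more than the spread of either stage. The alpha carbonic anhydrase probe TC315586 (GRMZM2G009633), for an enzyme that interconverts carbon dioxide and bicarbonate, went from 123, 97.6, 106 and 98.5 to 4693, 1501, 2686 and 1806, a log2 difference of 4.51 ± 0.37 (SE). At 1.0 mm it was close to the ON cutoffs of 81.1 to 84.7, and at 2.0 mm it was far above them on every array. The lipid transfer and seed storage type protein TC307451 (GRMZM2G448739) had 1039, 323, 113 and 827 at 1.0 mm and 2430, 26080, 3650 and 16100 at 2.0 mm, a log2 difference of 4.21 ± 1.10 (SE). Its arrays spread widely within each stage, and their lack of overlap is part of the call rule.

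Enzymes and transporters of primary metabolism were among the other members. TC301722 (GRMZM2G153536), annotated as a branched-chain amino acid aminotransferase, which acts in the metabolism of leucine, isoleucine and valine, went from 136, 122, 106 and 176 to 832, 1836, 1932 and 2322, a log2 difference of 3.61 ± 0.36 (SE). TC285686 (GRMZM2G155253), a homologue of fructose-bisphosphate aldolase, an enzyme of glycolysis and the Calvin cycle, went from 269, 137, 179 and 249 to 1582, 2085, 1315 and 2264, a log2 difference of 3.14 ± 0.29 (SE). Both had intermediate means at 1.5 mm, 932 and 667. TC307404 (GRMZM2G040033), for which one annotation gives an organic anion transporter and another similarity to pinin, went from 234, 149.6, 145 and 154 to 2018, 878, 4416 and 2516, a log2 difference of 3.65 ± 0.51 (SE). The pollen-specific arabinogalactan protein BAN102, TC298940 (GRMZM2G476848), a cell surface proteoglycan type, was at 115, 111, 135 and 99.1 at 1.0 mm and at 334, 469.7, 2059 and 3253 at 2.0 mm, a log2 difference of 3.14 ± 0.81 (SE). Its Cy3 arrays at 2.0 mm were well above its Cy5 arrays, and its mean at 1.5 mm of 109 was still that of 1.0 mm. Probes for GRMZM2G322817, GRMZM2G017186 and GRMZM2G113349, which carry no function in the sources used, rose 13.4-, 9.49- and 9.09-fold. Those for GRMZM2G322817 and GRMZM2G017186 had array SDs above 1 on the log2 scale at 1.0 mm. For all 3, in that order, the Mu-active log2 differences were 0.37, 4.86 and 2.23, none of them called.

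**Figure D2:**
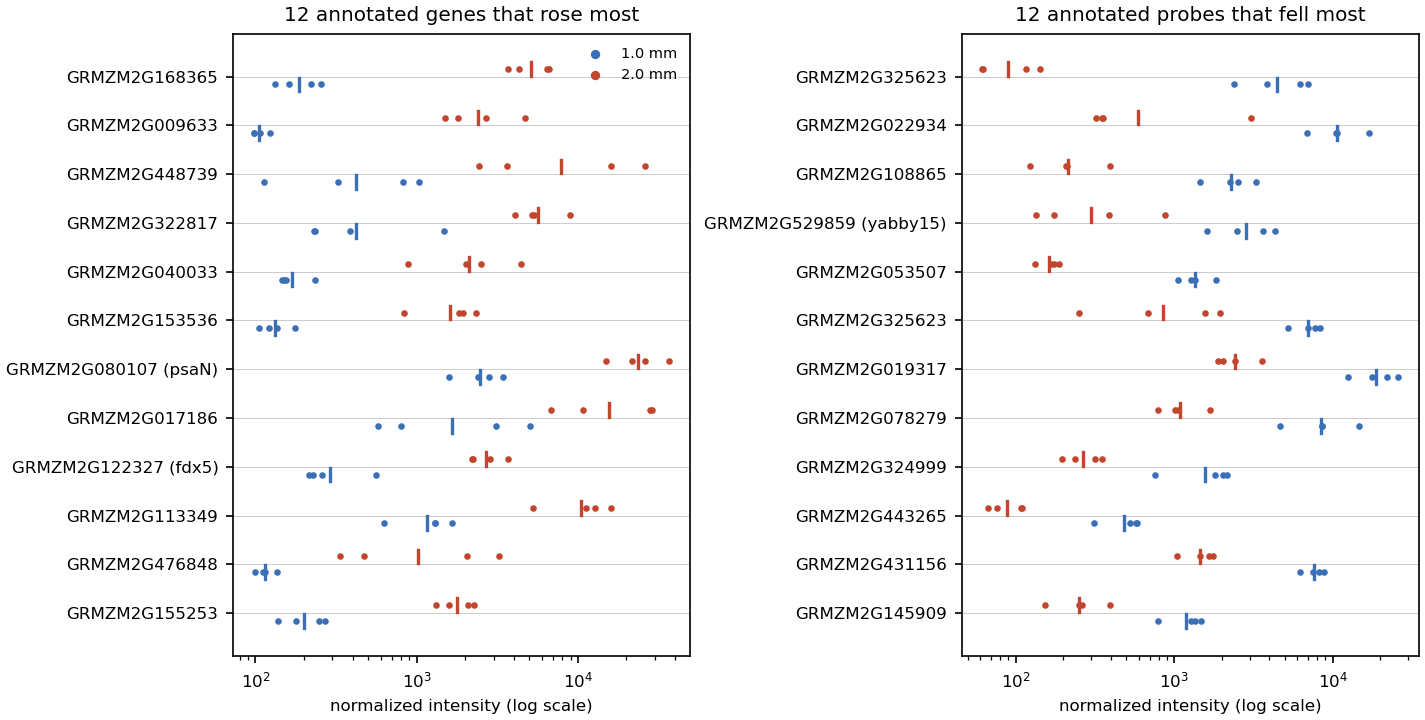
Normalized intensity (log scale) on each of 4 arrays at 1.0 mm (blue) and 2.0 mm (red) for the 12 annotated probes that rose most (left) and the 12 that fell most (right), with bars at the geometric mean. By the call rule no probe shown has overlapping stages. The top probe on the left differed 27.3-fold and the top probe on the right 50-fold.

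The largest rises of all were in probes without a gene model in the sources used. TC291473 went from 305, 234, 215 and 355 at 1.0 mm to 97340, 30580, 80610 and 31540 at 2.0 mm, 193-fold, and TC283860 from 103, 102, 83.1 and 91.6 to 19950, 3812, 10460 and 5360, 85.5-fold. Their means at 1.5 mm were 921 and 96.6, so both were brightest at the longest anthers by a wide margin. TC280400 rose 54.8-fold by its means, but its arrays at 1.0 mm were 108, 1942, 135 and 155 and its SE was 1.02. Array 2 at 1.0 mm was more than 10 times the other 3, and without it the rise was 107-fold. Among the brightest called probes, TC297917, BF718944 and TC279356 rose 3.37-, 3.02- and 2.41-fold and TC298893, TC292549 and TC298173 fell 2.10-, 2.13- and 2.49-fold. All 6 were bright at both stages, the dimmest 4-array mean being 15194, for BF718944 at 1.0 mm.

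Photosynthesis genes that were called all rose. Of the 14 compared probes for photosystem, chlorophyll and carbon fixation proteins, 7 (50%) were called higher against 3.36% of all compared probes, and 0 were called lower. Their median log2 difference was 1.04, against -0.05 for all compared probes, and 0.66 at 1.5 mm minus 1.0 mm. The spike-ins differed by a median of 1.22 between the same slides, with a range of 0.78 to 1.55. The part of that difference in the photosynthesis values was not tested. The same 7 and 0 calls were counted with median centring, and 9 and 0 with the scanner's processed signals. In the Mu-active channels of the same arrays 1 probe was called higher and the median was 0.54. For each of the 7 probes, Mu-active signals at 1.0 mm were higher on arrays 3 and 4 than on arrays 1 and 2. The PsaF probe TC299208, for example, had 1335, 1069, 3245 and 8130 there, against 9151, 9512, 7344 and 12520 at 2.0 mm. This spread within 1.0 mm limits the Mu-active count. The difference between the lines was not tested. The list was described whole, since its values had been seen. Its probes were found by annotation text, read in part from the study's supplementary tables. Some of those tables list transcripts chosen for a change in expression, so all compared probes are not a matched background.

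Of the 14 probes, those of 2 photosystem I subunits rose most. Subunit N, psaN (TC286460, GRMZM2G080107), which lies on the lumen side of the complex near plastocyanin, had 3445, 1583, 2391 and 2826 at 1.0 mm and 25980, 36940, 21650 and 15010 at 2.0 mm, a log2 difference of 3.26 ± 0.36 (SE), or 9.59-fold. Subunit PsaF (TC299208, GRMZM2G085646), which helps to dock the electron donor, went from 1838, 1146, 998 and 1319 to 9289, 6882, 5087 and 10560, a log2 difference of 2.57 ± 0.30 (SE). The means at 1.5 mm, 6048 and 4409, lay between those of the other lengths for both subunits. Ferredoxin 5 (fdx5), an iron-sulfur protein of the kind that accepts electrons from photosystem I, was not in the list but was among the 12 top annotated probes. Its probe TC294457 went from 558, 227, 258 and 216 to 3693, 2830, 2219 and 2233, a log2 difference of 3.21 ± 0.36 (SE).

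The other photosynthesis probes called higher, for photosystem II, antenna and chlorophyll synthesis genes, rose less. The oxygen-evolving enhancer protein 3-1 (TC310932), a subunit of the water-splitting side, went from 193, 137, 199 and 135 to 512, 369, 358 and 533, a log2 difference of 1.42 ± 0.22 (SE). The photosystem II 11 kD protein (TC310859) went from 104, 94.2, 99.7 and 89.0 to 271, 213, 244 and 232, 1.31 ± 0.09 (SE). The 11 kD protein probe had the smallest SE of the 7. The antenna genes lhcb4 (TC306370) and chlorophyll a-b binding protein 8 (TC286618, GRMZM2G010884) went from means of 101 and 94.5 to 230.1 and 259.8, differences of 1.18 ± 0.26 and 1.46 ± 0.26 (SE). Protochlorophyllide reductase (por, TC292871), which makes chlorophyllide in the light, went from 3653, 3600, 3629 and 2744 to 9251, 7832, 6511 and 7605, 1.19 ± 0.14 (SE).

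The probes that were not called included carbon fixation and chlorophyll turnover. The Rubisco large chain probe TC310187 (GRMZM5G815453), of a plastid-encoded protein, had 11820, 8007, 19510 and 21300 at 1.0 mm and 25760, 32260, 9307 and 11050 at 2.0 mm, overlapping stages, and a difference of 0.28 ± 0.55 (SE). The chlorophyllase probe TC303241 (GRMZM2G170734), of an enzyme that removes the phytol tail of chlorophyll, had a difference of -0.80 ± 0.50 (SE) with overlapping arrays. A second antenna probe, TC286628 (GRMZM2G117412), had a difference of 0.91 ± 0.53 (SE), also overlapping. Another 2 photosystem I probes, DR959613 for GRMZM2G009048 and AI855232 for GRMZM2G152952, had differences of 0.39 ± 0.07 and 0.35 ± 0.15 (SE), and their means at 2.0 mm were only 115 and 112. A second probe for GRMZM2G009048 was not ON at either length. The remaining probes, TC304008 (ribulose-phosphate binding barrel) and BG410662 (an antenna homologue), had differences of -0.29 ± 0.36 and -0.04 ± 0.15 (SE).

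**Figure D3:**
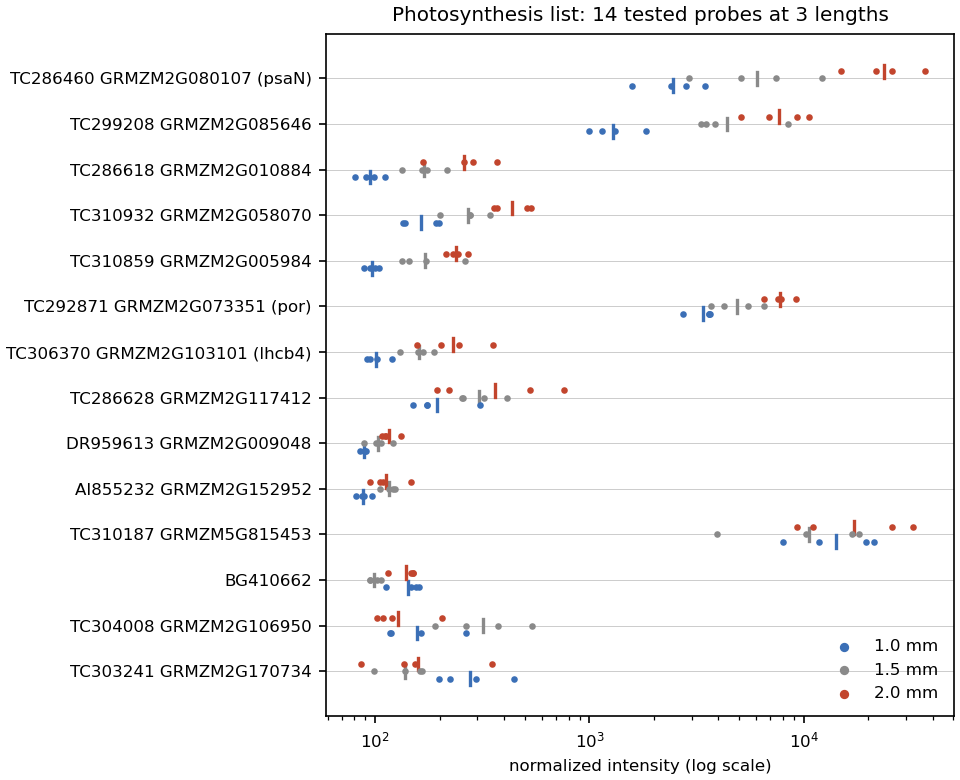
Normalized intensity (log scale) of the 14 compared photosynthesis probes on each of 4 Mu-inactive arrays at 1.0 mm (blue), 1.5 mm (gray) and 2.0 mm (red), with bars at the geometric mean. The first 7 rows were called higher at 2.0 mm and have gray points between or beside the others; the Rubisco large chain (TC310187) overlaps at all 3 lengths.

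The transcription factor probes found here by annotation text fell more often than they rose. That text was read in part from the study's supplementary tables, some of which list transcripts chosen for a change in expression. Most factors on the array are therefore not covered. Of 115 compared probes, 9 (7.83%) were called lower against 2.5% of all compared probes, and 1 (0.87%) was called higher. The list's median log2 difference was -0.16. With median centring 10 were lower and 0 higher, and with the processed signals 19 and 5. All compared probes then had 2077 lower and 660 higher, and 2956 and 2897. The largest fall was in yabby15 (TC300465, GRMZM2G529859), of a family known for setting the polarity of lateral organs, which had 1605, 4347, 2502 and 3660 at 1.0 mm and 389, 872, 135 and 175 at 2.0 mm, a log2 difference of -3.24 ± 0.69 (SE). YAB3 (TC285028), of the same family, went from 287, 272, 158 and 536 to 107, 112, 92.1 and 109.7, a difference of -1.44 ± 0.37 (SE). Both were already low at 1.5 mm, with means of 269 and 106.

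A pair of probes annotated as WRKY69, of the zinc finger WRKY family, fell as well. TC293927 (GRMZM2G053507) went from 1064, 1283, 1361 and 1836 to 187, 174, 167 and 132, a log2 difference of -3.05 ± 0.20 (SE). TC293926 (GRMZM2G324999) went from 759, 1810, 2153 and 2032 to 351, 236, 316 and 197, a difference of -2.55 ± 0.40 (SE). Both are in the list of transcripts enriched in the middle layer and tapetum at 0.7 mm, and a further WRKY probe, TC296026 (GRMZM2G139815), fell 3.58-fold. A bHLH probe, BG320278 (GRMZM2G145909), of a helix-loop-helix family with several members needed for tapetum development in maize and rice, went from 1351, 1483, 1275 and 795 to 252, 393, 152 and 262, a log2 difference of -2.25 ± 0.34 (SE). A second probe for the same gene model, DT653151, stayed near the cutoff, with means of 83.1 and 79.6. The NAM-domain factor TC289410 (GRMZM2G159500) fell 4.55-fold, MYC2a/myc7 (TC292438), of a group known for jasmonate responses, 2.26-fold, and MYB30 (TC296750) 2.23-fold. DLF1 (TC295500), a bZIP factor named for delayed flowering in maize, was the single probe of this list called higher, from a mean of 163 to 370.2, 1.19 ± 0.15 (SE). Factors without such annotation text fell outside the list. Among them, GRMZM2G139372, listed as bHLH51 (TC284660), was called higher, 7.33-fold, and an ocl4 probe (TC313065) was called lower, 3.36-fold. The factors outside the rule for named genes, those past the first 3 in each direction, were named after their values were seen.

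Among the other annotated probes that fell were enzymes, a wall protein and genes without a known function. Methyl esterase 1 (TC297815, GRMZM2G022934), of a family that removes methyl groups from esters of small molecules, had 6857, 10560, 10700 and 16890 at 1.0 mm and 353, 3077, 358 and 322 at 2.0 mm, a log2 difference of -4.17 ± 0.83 (SE). Array 2 at 2.0 mm was far above the other 3 at that length, and without it the fall was 31.1-fold in place of 18.0-fold. Beta-expansin 3 (TC289653, GRMZM2G078279), of a class of proteins that loosen grass cell walls, went from 14690, 4677, 8563 and 8521 to 1054, 1680, 1008 and 795, a log2 difference of -2.95 ± 0.41 (SE). Its mean at 1.5 mm was 4768, between the others. It was the single cell wall probe called, out of 24 compared.

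GRMZM2G325623, an unannotated gene model, was measured by 2 probes that both fell. TC306708 went from 3856, 6985, 6251 and 2372 to 62.3, 61.6, 117 and 142, 50-fold, and TC306709 from 6962, 7757, 8345 and 5270 to 251, 1557, 680.4 and 1948, 8.23-fold. At 2.0 mm arrays 1 and 2 of TC306708 were below the ON cutoffs of 82.5 to 90.4, so its fold depends on signals at the floor. By the scanner software's flag all 4 were still well above background. This probe was also near the cutoff at 1.5 mm, at a mean of 78.2, and TC306709 was at 935. In the Mu-active channels of the same arrays their log2 differences were 1.76 and 0.31, neither of them called. TC281450 (GRMZM2G443265), similar to a plastidic phosphate translocator, which exchanges phosphorylated sugars across the plastid envelope, went from 310.1, 525, 584 and 577 to 67.2, 76.5, 109 and 107, a log2 difference of -2.46 ± 0.28 (SE), against 0.60 in the Mu-active channels. GRMZM2G108865 (TC302970) and GRMZM2G431156 (TC296093), without a known function, fell 10.6- and 5.26-fold, with log2 differences of -4.32 and -2.15 in the Mu-active channels, where both were called lower.

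The probes of 1 gene model did not always move together. GRMZM2G019317 had 3 probes, of which TC301386 fell from 12480, 22100, 25870 and 17840 to 2406, 2048, 3588 and 1906, TC307366 from 224, 316, 276 and 266 to 87.9, 84.3, 124 and 86.4, and DR816341 was not called, with means of 127 and 112. The falls were 7.84- and 2.84-fold. Of 703 gene models with several compared probes, 96 had at least 1 called probe, 8 had all of them called the same way, and in 21 a called probe had a partner with the opposite sign. Differences are therefore stated per probe. Without gene models, TC286075 fell 22.7-fold and TC279595 17.4-fold. BM378471 went from 3723, 1765, 1838 and 1125 to 55.9, 59.4, 119 and 129, 22.7-fold by its means, but at 2.0 mm 2 arrays were below the ON cutoffs of 82.5 to 90.4 and only 1 was well above background by the scanner software's flag. Its log2 difference in the Mu-active channels was 0.0017.

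The outer and inner cell layers were read from 4 lists of transcripts enriched in cell types that had been dissected by laser from 0.7 mm anthers. These lists come from other samples than the arrays here and share 0 probes with one another. In whole anthers, fewer cells of a type and less RNA per cell cannot be told apart. Of 1055 compared epidermis and endothecium probes, 142 (13.5%) were higher at 2.0 mm and 35 (3.32%) lower, against 3.36% and 2.5% of all compared probes, and their median log2 difference was 0.10. Of 808 connective and vasculature probes, 14 (1.73%) were higher and 63 (7.8%) lower, with a median of -0.40. Of 914 middle layer and tapetum probes, 13 (1.42%) were higher and 57 (6.24%) lower, with a median of -0.10. Of 1918 archesporial cell probes, 94 (4.9%) were higher and 52 (2.71%) lower, with a median of 0.02.

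The lists also differed in brightness. The brightest 25% of all compared probes held 52.3% of the epidermis and endothecium probes, 54.8% of the connective and vasculature, 43.9% of the archesporial and 24.1% of the middle layer and tapetum probes. Connective and vasculature probes were below zero in 82.2% of cases, against 56.7% of all compared probes, and their median at 1.5 mm minus 1.0 mm was -0.04. All compared probes had 660 higher and 2077 lower calls with median centring, and 2897 and 2956 with the processed signals. The archesporial list, like all compared probes, had more higher or more lower calls depending on the normalization. With median centring it had 47 higher and 134 lower calls, and with the processed signals 209 and 123. The epidermis and endothecium list had 82 higher and 67 lower with median centring, when its median was -0.06, and 187 and 76 with the processed signals. The other 2 lists had more lower than higher calls under each of these normalizations, 222 against 4 and 118 against 14 for connective and vasculature, and 116 against 6 and 115 against 45 for middle layer and tapetum. In the Mu-active channels the 4 lists had 99 higher and 31 lower, 7 and 77, 14 and 53, and 90 and 53, in the order of the preceding paragraph.

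**Figure D4:**
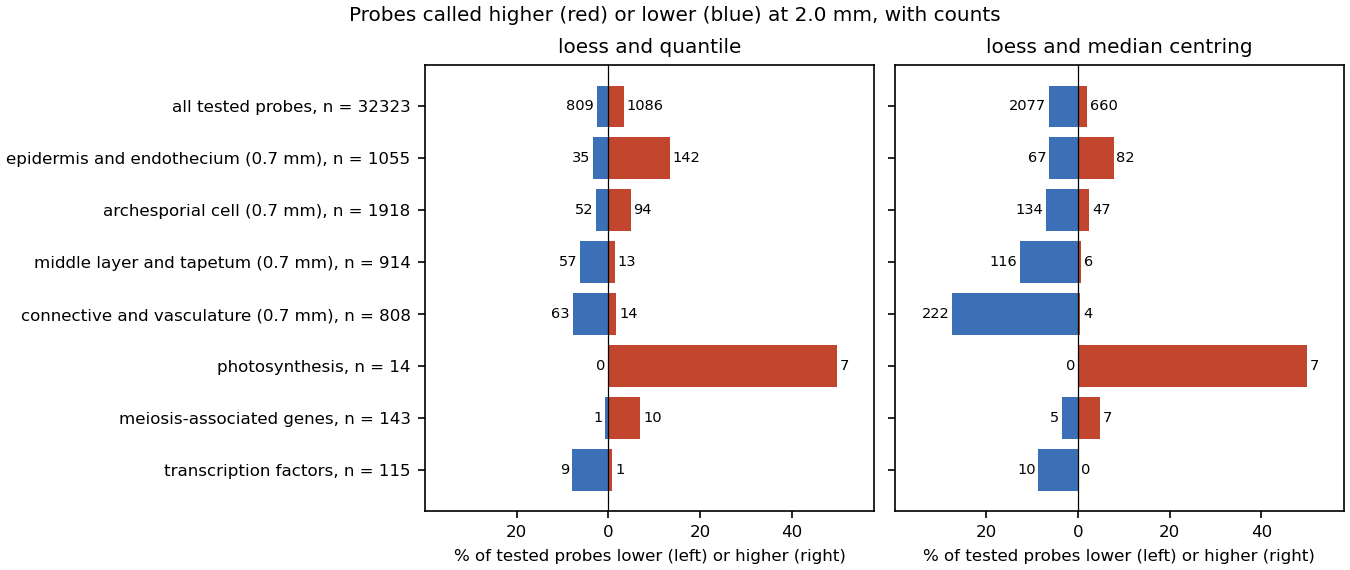
Percent of compared probes called lower (blue, left of 0) or higher (red, right of 0) at 2.0 mm in all compared probes and in 7 lists, with the counts at the bar ends, after quantile normalization (left panel) and after median centring (right panel). The photosynthesis bar is at 50% in both panels, while the bar of all compared probes changes from 1086 higher and 809 lower to 660 and 2077.

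Named members of the layer lists showed the size of these changes. In the epidermis and endothecium list, pcr1 (TC292869, GRMZM2G084958) went from 1762, 1527, 2388 and 2467 to 25330, 21100, 20200 and 22550, a log2 difference of 3.48 ± 0.18 (SE). TC294697 and TC311157 (GRMZM2G049675) of the same list rose 13.7- and 12.8-fold, and AI901437 (GRMZM2G046618) and BQ538664 (GRMZM2G081915) fell 5.44- and 4.49-fold. The third to fall, thi1 (TC280434), for an enzyme of thiamine synthesis, went from 4109, 2112, 2306 and 1006 to 277, 474, 562 and 771, a difference of -2.12 ± 0.52 (SE), against 1.82 in the Mu-active channels, where it was not called. The photosynthesis probes are partly members: psaN, PsaF and por are all on the epidermis and endothecium list, as are TC286628, TC310187 and TC304008, which were not called. The fdx5 probe, outside the photosynthesis list, is a member too. The study names pcr1 together with por for chlorophyllide synthesis, but pcr1 has no annotation text here and was not in the photosynthesis list.

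In the connective and vasculature list, the probe for GRMZM2G139372 (TC284660) went from 2428, 3113, 3245 and 4109 to 39490, 12570, 21510 and 27260, a log2 difference of 2.87 ± 0.38 (SE), and was also called in the Mu-active channels at 3.23. TC279981 and TC293304 (GRMZM2G118800) rose 8.09- and 5.69-fold, the first with an array SD of 1.53 on the log2 scale at 1.0 mm. TC306708 and yabby15 led the falls in this list, followed by TC305216 (GRMZM2G086805), which fell 6.01-fold. In the middle layer and tapetum list, CF631620, TC284075 and TC293946 (GRMZM2G024697) rose 5.45-, 5.23- and 4.94-fold, and TC279595, GRMZM2G108865 and CF624081 (GRMZM2G369703) fell 17.4-, 10.6- and 8.67-fold. In the archesporial list, TC291219 (GRMZM2G015648), TC299290 (GRMZM2G058138) and TC314515 rose 10.6-, 10.2- and 8.94-fold. For TC299290 the arrays at 1.0 mm were 959, 829, 112 and 117, high in Cy5 and low in Cy3. TC294558 (GRMZM2G070863), TC283102 (GRMZM5G816432) and AW360441 fell 5.94-, 4.89- and 4.64-fold.

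The early anther markers had a median log2 difference of -0.49 over 21 compared probes, and of -0.83 with median centring. The study chose them as transcripts that fell early, in shorter anthers, and stayed low or OFF at its later stages, up to 1.0 mm. Its 1.0 mm values came from a separate experiment with the same array type, and whether those arrays are the ones used here is not stated. Of the 21, 4 were called lower (19.0%) and 1 higher (4.76%), against 2.5% and 3.36% of all compared probes. In the Mu-active channels 0 were called lower and 1 higher, with a median of -0.56, and the difference between the lines was not tested. The lower probes were methyl esterase 1, yabby15, adenine phosphoribosyltransferase 2 (TC293820), which salvages adenine, and TC314925. The last 2 fell 2.50- and 2.47-fold. At 1.0 mm these 4 had means of 10695, 2827, 688 and 688, in that order. Of the 21 probes, 57.1% were in the brightest 25% of compared probes by mean intensity, so the list was not low as a whole in these arrays. TC295217 (GRMZM2G070442), with a domain of unknown function, rose 6.36-fold, from 476, 617, 688 and 871 to 4189, 2733, 7070 and 3548. These members were named whole after their values were seen.

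Of 143 compared probes for genes that the study associates with meiosis, 10 were called higher (6.99%) and 1 lower (0.699%), against 3.36% and 2.5% of all compared probes, and the median log2 difference was 0.03. The Mu-active channels had 11 higher and 3 lower. With median centring 7 were higher and 5 lower, and with the processed signals 22 and 7. All compared probes then had 660 higher and 2077 lower, and 2897 and 2956. The cyclin-dependent kinase inhibitor cki2 (TC297785, GRMZM2G101613), of a class of proteins that restrain the cell cycle, went from 272, 166, 228 and 213 to 1399, 1189, 717 and 627, a log2 difference of 2.10 ± 0.32 (SE). TC291009 (GRMZM2G032562) and TC286746 (GRMZM2G115504) rose 4.31- and 3.52-fold. For TC286746 the arrays at 2.0 mm were 1563, 180.5, 1357 and 189, of which arrays 2 and 4 were only slightly above 1.0 mm. The other 7 higher probes rose 2.04- to 2.95-fold, and DN559761 (GRMZM2G135073) fell 2.22-fold. The 11 called probes are all on the archesporial list as well, but the share of all 143 on that list is not given here. Of 205 listed gene models 115 were paired with probes, and the archesporial list was among the sources of the pairing.

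Of 14 listed meiotic genes, 4 were paired with probes here. Ameiotic 1 had 3 probes, none called, and the one paired with the gene model went from 253, 198, 166 and 174 to 103, 125, 108 and 141, a log2 difference of -0.72 ± 0.17 (SE). The stages did not overlap, but the means were under 2-fold apart. A second was at 0.55 ± 0.08 (SE) and the third was not ON at either length, so the probes of this gene disagreed in sign. Absence of first division (afd1), the meiotic REC8 cohesin of maize, had 4 probes, 3 of which carry its GenBank name. The brightest went from 1722, 1520, 1396 and 1220 to 679.8, 885, 553 and 797, -1.02 ± 0.18 (SE), and was called lower. The others were at -0.46 ± 0.19, -0.73 ± 0.28 and 0.02 ± 0.13 (SE), and were not called.

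Probes for SPO11-1, which makes the DNA breaks that start recombination, were at -0.13 ± 0.14 and -0.23 ± 0.14 (SE), the reference table pairing their gene model with PHYC as well. Poor homologous synapsis 1 (PHS1), needed for correct chromosome pairing, was at -0.02 ± 0.16 (SE). Both genes overlapped between stages. None of the 14 probes that carry the names of the cohesin subunits ZmSMC1, ZmSMC3 and ZmRAD21 and the cohesin protector ZmSGO1 was called, with differences from -0.40 ± 0.12 to 0.46 ± 0.06 (SE), of which 3 ZmRAD21 probes were not ON. The brightest, a ZmSMC3 probe, was at 1537, 1524, 1783 and 1329 and 1923, 1538, 1809 and 1902, with the stages overlapping. The cohesin probes were taken whole by their names.

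**Figure D5:**
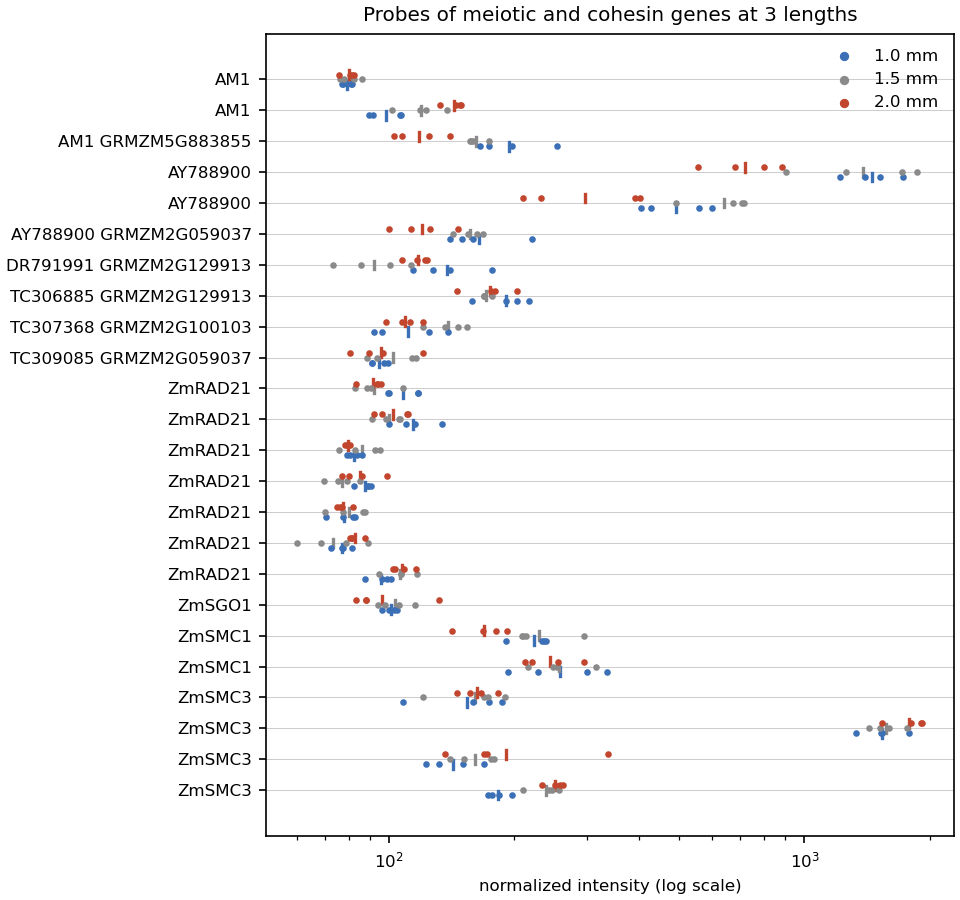
Normalized intensity (log scale) of each probe of am1, afd1 (AY788900 and TC309085), Spo11-1 (GRMZM2G129913), PHS1 (TC307368) and the cohesin genes on each of 4 Mu-inactive arrays at 1.0 mm (blue), 1.5 mm (gray) and 2.0 mm (red), with bars at the geometric mean. The brightest afd1 probe, at means of 1453 and 718, is the one called, and most others are far dimmer with overlapping stages.

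Male fertility genes were covered by 5 of 16 listed gene models. Outer cell layer 4 (ocl4), an HD-ZIP IV factor of the anther epidermis in maize, was measured by TC313065, which went from 3898, 4365, 6168 and 4852 to 1020, 2404, 974 and 1666, a log2 difference of -1.75 ± 0.34 (SE), and by TC311162, at -0.54 ± 0.14 (SE) and not called. Both probes were lower at 2.0 mm on all arrays. Ms26, a cytochrome P450 needed for the pollen wall, had means of 91.5 at 1.0 mm and 152 at 2.0 mm, 0.73 ± 0.16 (SE), short of 2-fold. In the Mu-active channels it was called higher at 1.21. GRMZM2G434500 was at -0.17 ± 0.11 (SE), GRMZM2G139372 is given above, and GRMZM2G027821, listed for the secreted ligand gene Mac1 but named CNR13 in the reference table, was not ON.

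The remaining lists held 5 or fewer calls each, to be read against the 3.36% higher and 2.5% lower of all compared probes. Lists found by annotation text share the limit given above for the photosynthesis and transcription factor probes. Lipid transfer proteins, which carry lipids in the cell wall space, had 2 of 7 probes higher (28.6%) and 0 in the Mu-active channels, TC307451 and TC283960 (GRMZM2G387360), the second from a mean of 334 to 714. Of 8 exine and phenylpropanoid probes 1 was higher, TC312817, weakly similar to dihydroflavonol reductase. By the scanner software's flag it was not well above background on any array at 1.0 mm, when its signals were 81.1, 74.4, 85.9 and 87.5, reached 690.5, 287, 662 and 345 at 2.0 mm and was at least 5.62-fold higher. Of 28 glutathione and peroxidase probes 3 were higher, the peroxidase-like TC287632 (5.35-fold), GST25 (2.93-fold) and a hydroxyacylglutathione hydrolase (TC300750, 2.02-fold), and GST38 (TC306965) was lower, 3.21-fold.

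Of 27 ribosomal protein probes 3 were higher and 2 lower. L18e (TC301902), L21e (TC309341) and a bacterial-type S15 (TC294643) rose 3.097-, 2.87- and 2.09-fold, and L29e (TC310835) and S2 (TC310738) fell 3.08- and 2.07-fold. Under median centring the counts were 1 and 1. Of 31 RNA binding and small RNA probes 5 were lower (16.1%) and 0 higher, and 6 and 0 in the Mu-active channels, led by TC299936, an RNA binding protein, the helicase TC285720 and TC311412, with falls of 3.44-, 2.73- and 2.28-fold. Of 23 heat shock probes, heat shock cognate 70 (TC279812) rose 6.16-fold and a DnaJ protein (TC281762) fell 2.68-fold. Of 8 tubulin and kinesin probes the kinesin AW453385 rose 2.19-fold, with arrays of 687, 121, 237 and 142 at 2.0 mm. Of 11 proteasome probes the alpha subunit TC310297 fell 2.34-fold, and of 8 probes annotated with pollen BAN102 rose.

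Among 6 replication and cell cycle probes cki2 rose, and the list's median was -0.51. By this rule 0 probes were called among 5 histones, 5 callose and glucanase, 28 protease, 16 sugar metabolism and 9 transposon probes. With the limma fit of stage and dye, at an adjusted p under 0.05 and 2-fold, 1100 probes were higher and 864 lower over all compared probes, a fit in which the slide is part of the stage. Of the 140 probes described, 32 had a listed sequence.

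The 1.5 mm anthers placed these changes in time. Of the 1086 higher probes, the 1.5 mm mean was nearer to 1.0 mm for 599 and nearer to 2.0 mm for 487, and for 143 of all of these it lay outside the range of the other means. Of the 809 lower probes, 389 were nearer to 1.0 mm, 420 nearer to 2.0 mm, and 164 of all of these were outside the range. The 1.5 mm arrays lay on a slide of their own.

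The Mu-active channels of the same 8 arrays give the same contrast in other RNA that shared each slide and hybridization, so they are no independent repeat. There 860 of 32607 compared probes (2.64%) were higher and 786 (2.41%) lower. The lines shared 552 higher probes, 50.8% of the Mu-inactive and 64.2% of the Mu-active calls, and 387 lower probes, 47.8% and 49.2%. Called probes of the Mu-inactive line had medians of 1.17 and -1.11 in the Mu-active channels, and 1 of the higher and 1 of the lower were called in the opposite direction.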

How the data were processed

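Mu-active and Mu-inactive maize anthers were hybridized to 12 Agilent 4 x 44K arrays with 2 channels, 4 arrays at each of 1.0, 1.5 and 2.0 mm, with the dyes exchanged on 2 of each 4. The authors deposited, for each array, Agilent Feature Extraction output whose median foreground intensity of 43451 spots is on a linear scale and not normalized. They also deposited 1 table of log2 ratios per probe and stage, used here only to read the direction of the lines, with correlations of 0.991, 0.988 and 0.991 at the 3 lengths to the Mu-active over Mu-inactive ratio computed here.

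Both channels of all 12 arrays went through limma 3.58.1 (R 4.3.3), with loess within each array (control spots at zero weight) and then quantile normalization, without background subtraction, as in the study's methods, which write quartile for the latter step. ON calls used a cutoff of 3 SD above 153 negative controls in at least 3 of 4 arrays. A probe was called at a 2-fold difference of the 4-array means on the log2 scale with non-overlapping arrays, since stage and slide cannot be told apart. Where a probe was not well above background on any array of a stage, the fold is a lower bound, the brighter mean over the higher, per array, of the lowest signal well above background and the probe's own. Arrays carry no counts, and their number limits the precision.

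Gene models were assigned to probes from the study's supplementary tables, read in part, which gave 7744 probes, 6826 gene models and 2774 probe sequences. Symbols are those of the RefSeq table of assembly Zm-B73-REFERENCE-NAM-5.0, which listed 5319 of the gene models. Other probes carry the array's name for them. Probes were named by a rule: the 12 annotated probes that rose and fell most, the 3 without gene model, the 3 of each list each way, the tabulated meiotic and male fertility genes, and the 3 brightest calls each way. Photosynthesis, cohesin and called transcription factor, marker and meiosis probes were added whole. The members and lists were chosen with earlier results of these data known. Gene lists were described by counts beside those of all compared probes, with no set test.

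Alternatives were other normalizations, background corrections, thresholds, filters, single dyes, the other channel, limma fits and leaving out each array. The call rule and the limma fit were tested on simulated data. Figures were drawn with Python 3.11.15 and matplotlib 3.10.9.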

Additional observations from a re-analysis of the deposited data

Results flagged for a closer look

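In 280 groups of 4 arrays, 16 had 1 array whose gap to the nearest other was above Dixon's critical value for 4 samples, or 5.71%, against about 1 in 20 by chance. Arrays above the other 3 of their group were TC295500 (196.4 on array 1 at 1.0 mm, the others 149 to 156), TC307404 (234.3 on array 1 at 1.0 mm, the others 145 to 154), TC280400 (1942 on array 2 at 1.0 mm, the others 108 to 155), TC310835 (1616 on array 2 at 2.0 mm, the others 772 to 863), TC297815 (3077 on array 2 at 2.0 mm, the others 322 to 358) and TC307366 (123.9 on array 3 at 2.0 mm, the others 84.3 to 87.9). Arrays below the others were TC311412 (388.9 on array 1 at 1.0 mm, the others 668 to 721), CF631620 (126.1 on array 1 at 1.0 mm, the others 166 to 169), TC293926 (758.8 on array 1 at 1.0 mm, the others 1810 to 2153), TC281450 (310.1 on array 1 at 1.0 mm, the others 525 to 584), the por probe TC292871 (2744 on array 4 at 1.0 mm, the others 3600 to 3653) and CF063524 (123.6 on array 2 at 2.0 mm, the others 257 to 297). Among probes that were not called, a ZmSMC1 probe was at 191.5 on array 1 at 1.0 mm (the others 234 to 238), ZmSGO1 at 132.1 on array 1 at 2.0 mm (83.2 to 88.3), a ZmRAD21 probe at 87.54 on array 1 at 2.0 mm (80.6 to 81.6) and BG410662 at 114.1 on array 2 at 2.0 mm (147 to 150). Without the outlying array, 12 of the 12 called probes kept their call, and the fold moved by over 1.5 times for 2, from 54.8 to 107 for TC280400 and from 18.0 to 31.1 for TC297815.

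TC280400 differed between the lines. Its log2 difference between 2.0 and 1.0 mm was 5.78 in the Mu-inactive channels and -1.88 in the Mu-active channels, with every array apart in both and in opposite directions. The difference between the lines was not tested.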

How the results depend on the processing

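Most counts moved with the normalization. With median centring, 660 probes were higher and 2077 lower, and the list counts (higher and lower) were 47 and 134 for archesporial cells, 6 and 116 for middle layer and tapetum, 82 and 67 for epidermis and endothecium, and 4 and 222 for connective and vasculature, with 5 meiosis-associated probes lower and 0 transcription factors higher. With the scanner's processed signals, which change background subtraction, dye normalization and scaling together, 2897 were higher and 2956 lower, and the lists, a comparison added after seeing the data, had 209 and 123, 45 and 115, 187 and 76, and 14 and 118 in that order, 22 and 7 for meiosis, 5 and 19 for transcription factors, and 36 and 36 summed over the 19 other lists. The cause was not tested. At 1.5-fold 2130 and 1998 probes were called, and at 4-fold 232 and 73. Without the rule on overlap, 75 epidermis and endothecium probes were lower.

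With the Cy5 arrays alone, 1239 probes were lower, among them 100 archesporial, 89 middle layer and tapetum, 112 connective and vasculature and 4 meiosis-associated, and 21 middle layer and tapetum probes and 3 transcription factors were higher. With the Cy3 arrays alone, 1344 were lower, among them 115 epidermis and endothecium, 2 meiosis-associated, 2 photosynthesis and 19 transcription factor probes and 27 of the 19 other lists, and 151 archesporial, 21 meiosis-associated and 2 transcription factor probes were higher. Fewer arrays make a lack of overlap easier to reach. In the other channel 7 connective and vasculature probes and 1 photosynthesis probe were higher and 3 meiosis-associated probes lower. Of the 103 called probes that are named, 9 changed sign there, TC306708 (1.76), TC306709 (0.31), TC281450 (0.60), TC280434 (1.82), TC281762 (0.25), TC306965 (0.32), TC299290 (-0.19), TC280400 (-1.88) and BM378471 (0.0017). A further 47 of the 140 named differences moved by over 1 SD in the other channel, 65 with the processed signals, 21 with median centring and 19 with each dye alone. All 140 stayed within 1 SD with each array left out, with normexp correction, with quantiles over 8 arrays and without spots with an outlier flag. The 103 called ones kept their sign there, and 8 that were not called, at -0.08 to 0.28, changed sign in at least 1 of these settings.

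Leaving out each array gave 1071 to 1229 higher and 816 to 1058 lower probes. ON in all 4 arrays of one stage and none of the other held for 245 probes at 1.0 mm and 70 at 2.0 mm. Array numbers are not replicate numbers of the labels, and a limma fit with the array number as a replicate block gave 1058 higher and 798 lower, against 1100 and 864 without it. The 2.0 mm signal, nearer to the negative controls, limits what can be seen as a fall in dim probes.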
